A study of Mus musculus with 8 samples.

Results

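The BCL-2 family genes described here were 10 listed genes of the mitochondrial route to apoptosis: the survival genes Bcl2, Bcl2l1 (BCL-XL), Mcl1 and Bcl2a1a (A1), the BH3-only genes Bcl2l11 (BIM), Bbc3 (PUMA), Pmaip1 (NOXA) and Bid, and the pore-forming effectors Bax and Bak1. They were found by the gene name that the array files give each probe. Of the 10 genes, 9 had at least 1 probe by that name and 21 probes in all, out of 20079 entries tested, where an entry is a named gene or a single unnamed probe. Bcl2a1a had no probe of its own name, and its close copies are described in its place below.

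Transcripts were read from cells of RAW264.7, a macrophage line of the mouse derived from a tumour induced by Abelson leukaemia virus, with 8 1-colour (Cy3) arrays of 60-base probes, 1 array per condition. In 1 arm cells received melatonin, the pineal hormone, at 1 mM for 1 h, and were then sampled without LPS or after 1, 3 or 5 h of LPS. The other arm was sampled at the same times and received no melatonin. LPS, a bacterial endotoxin and the ligand of Toll-like receptor 4, came from Escherichia coli and was given at 100 ng/ml, and all cultures grew in RPMI1640 with 5% serum.

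Each value is the log2 signal of a probe minus the 75th percentile of its array. No condition had a second array, so the spread comes from an additive limma model (LPS time plus melatonin) that reads both arms together. Its p-values hold no more than the scatter among these 8 arrays, which may be technical. A gap between the arms that differed between LPS times counts as scatter too. It enlarges the spread of that gene and can raise its p-values. Hours of LPS went with hours in culture and with the array's column on the slide in both arms, and melatonin went with the slide row, so these cannot be told apart. The 75th percentile fell at each later LPS time in both arms, from 846.1 to 718.7 with melatonin and from 830.1 to 659.1 without. It was higher with melatonin at every time, so the scaling moved with both comparisons. No spot was saturated, and 46.96% to 52.98% of probes were well above background. Of 10 macrophage markers, 9 were well above background on all 8 arrays and Mrc1 on 0. Markers of epithelial cells (3 of 3), neutrophils (2 of 3) and fibroblasts (2 of 3) were on 0 arrays, and no B cell marker was on all 8. Of 3 T cell markers, Cd3e and Cd3d were well above background on all 8 arrays, with log2 values of 0.26 to 0.71 and -3.64 to -1.71; their part in the results was not tested. RNA was taken from whole cultures, so fewer cells with a transcript and less of it per cell cannot be told apart.

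Proteins of this family decide whether the outer mitochondrial membrane stays closed. Survival proteins hold the BAX and BAK effectors in check, BH3-only proteins bind and neutralise the survival proteins or activate the effectors, and pores made by BAX and BAK release cytochrome c, which starts the caspases. In macrophages A1 and BCL-XL are known targets of NF-kB, the main transcription factor downstream of Toll-like receptor 4, whereas BIM and PUMA are known targets of FOXO factors and PUMA and NOXA of p53.

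Probes of 4 genes are shown with their sequences, since several genes of the family have copies or alternative transcripts and a probe reports only what its bases match. Positions follow the array files (build mm9). The Bcl2l11 probe spans 11096 bases of the genome, so its 60 bases join separate exons.
Bcl2 probe, chr1:108608970-108609029, minus strand: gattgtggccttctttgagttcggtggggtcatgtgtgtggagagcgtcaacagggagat
Bcl2l1 probe, chr2:152655185-152655244, minus strand: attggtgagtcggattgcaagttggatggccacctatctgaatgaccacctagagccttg
Bcl2l11 probe, chr2:127972893-127983988, plus strand: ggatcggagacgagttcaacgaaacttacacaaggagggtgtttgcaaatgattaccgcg
Bcl2a1c probe, chr9:114239422-114239481, plus strand: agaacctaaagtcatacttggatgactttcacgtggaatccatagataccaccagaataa

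Promoter windows (250 bases before to 50 after a start, RefSeq, GRCm38.p6) were matched by symbol for 9 of the 10 genes, in 14 windows. Both strands were searched for 5 motifs: the degenerate NF-kB consensus, TGANTCA (AP-1), TGACGTCA (CRE), GTAAACA (FOXO) and CACGTG (E-box), and no match overlapped one of another motif. Among all 32851 windows of the table, 8.46% held the NF-kB consensus, 7.81% the AP-1 motif, 1.79% the CRE, 3.65% the FOXO motif and 7.15% the E-box. The NF-kB consensus was in 1 of 3 Bcl2l1 windows and in 1 of 3 Bbc3 windows, there as 2 matches that overlap each other. The FOXO motif was in 1 of 2 Bcl2l11 windows and in another Bbc3 window, the AP-1 motif was in the Bcl2a1a window, and the E-box was in the Bax window and the remaining Bbc3 window. A match is a description of letters and not of binding. The 4 windows below are shown because Bcl2l1 and Bcl2l11 had the largest rises at 3 and 5 h among the members with a probe of their own, Bcl2a1a stands for A1, and Bbc3 shares the FOXO motif with Bcl2l11; capitals mark the motif found.
Bcl2l1 promoter, chr2:152830668-152830967, minus strand: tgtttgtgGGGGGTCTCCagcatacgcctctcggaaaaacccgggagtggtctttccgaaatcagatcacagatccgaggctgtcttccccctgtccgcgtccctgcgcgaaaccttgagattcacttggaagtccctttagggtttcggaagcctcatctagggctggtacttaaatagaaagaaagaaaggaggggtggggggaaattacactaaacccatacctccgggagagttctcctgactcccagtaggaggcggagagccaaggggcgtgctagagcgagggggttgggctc
Bcl2a1a promoter, chr9:88956670-88956969, plus strand: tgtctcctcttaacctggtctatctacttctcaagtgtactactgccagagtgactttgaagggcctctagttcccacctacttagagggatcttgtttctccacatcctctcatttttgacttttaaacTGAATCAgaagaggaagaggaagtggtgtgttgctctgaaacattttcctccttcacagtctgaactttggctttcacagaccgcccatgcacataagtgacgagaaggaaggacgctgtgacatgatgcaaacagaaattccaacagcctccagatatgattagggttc
Bcl2l11 promoter, chr2:128125788-128126087, plus strand: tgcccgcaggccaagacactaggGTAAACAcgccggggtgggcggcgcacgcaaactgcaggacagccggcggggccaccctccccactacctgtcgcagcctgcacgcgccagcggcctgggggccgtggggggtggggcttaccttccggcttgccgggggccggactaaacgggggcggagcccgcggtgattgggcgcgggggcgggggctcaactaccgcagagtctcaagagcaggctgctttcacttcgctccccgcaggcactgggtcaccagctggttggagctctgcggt
Bbc3 promoter, chr7:16310011-16310310, plus strand: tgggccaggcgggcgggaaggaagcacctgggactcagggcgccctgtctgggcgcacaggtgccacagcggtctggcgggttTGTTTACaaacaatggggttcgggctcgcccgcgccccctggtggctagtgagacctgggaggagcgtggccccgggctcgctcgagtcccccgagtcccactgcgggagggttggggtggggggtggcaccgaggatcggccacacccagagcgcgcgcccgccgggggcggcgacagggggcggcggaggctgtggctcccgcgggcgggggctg

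With LPS, the survival gene Bcl2l1 and the death gene Bcl2l11 had the largest rises at 3 and 5 h among the 9 members with a probe of their own. The A1 copies described below rose further than both at 5 h. At 3 h the copy that rose less, at 3.24 ± 0.26 log2, was within the SE of Bcl2l1, at 3.15 ± 0.21. Bcl2l1 rose about 9-fold by 3 h, Bcl2l11 about 4-fold, Mcl1 and Pmaip1 rose early and less, Bcl2 fell, and the effectors Bax and Bak1 passed the test at no LPS time under the scaling used, although Bax passed as lower at 3 and 5 h under quantile scaling (-0.17 and -0.18; limma, adjusted p = 0.0303 and 0.0216). At 1 h 3 of the 9 measured members rose and none fell, against 1.96% of all entries called in either direction, 1.67% higher and 0.284% lower. At 3 h 4 rose and 1 fell, against 33.7% of all entries, 18.6% higher and 15.1% lower, and at 5 h the counts were again 4 and 1, against 44.2%, 24.9% higher and 19.4% lower. The members' median log2 change was 0.66, 0.60 and 0.40 at 1, 3 and 5 h, beside -0.0077, 0.058 and 0.082 over all entries. The members' counts moved when either array without LPS was left out, and so did the calls over all entries. Some also moved without 1 of the arrays with LPS. Where the array left out was of a time compared, that time kept only 1 array. The ranges are given at the end. Under quantile scaling, and again in the deposited table, 4 rose and 2 fell at 3 h and 2 rose and 2 fell at 5 h.

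**Figure D1:**
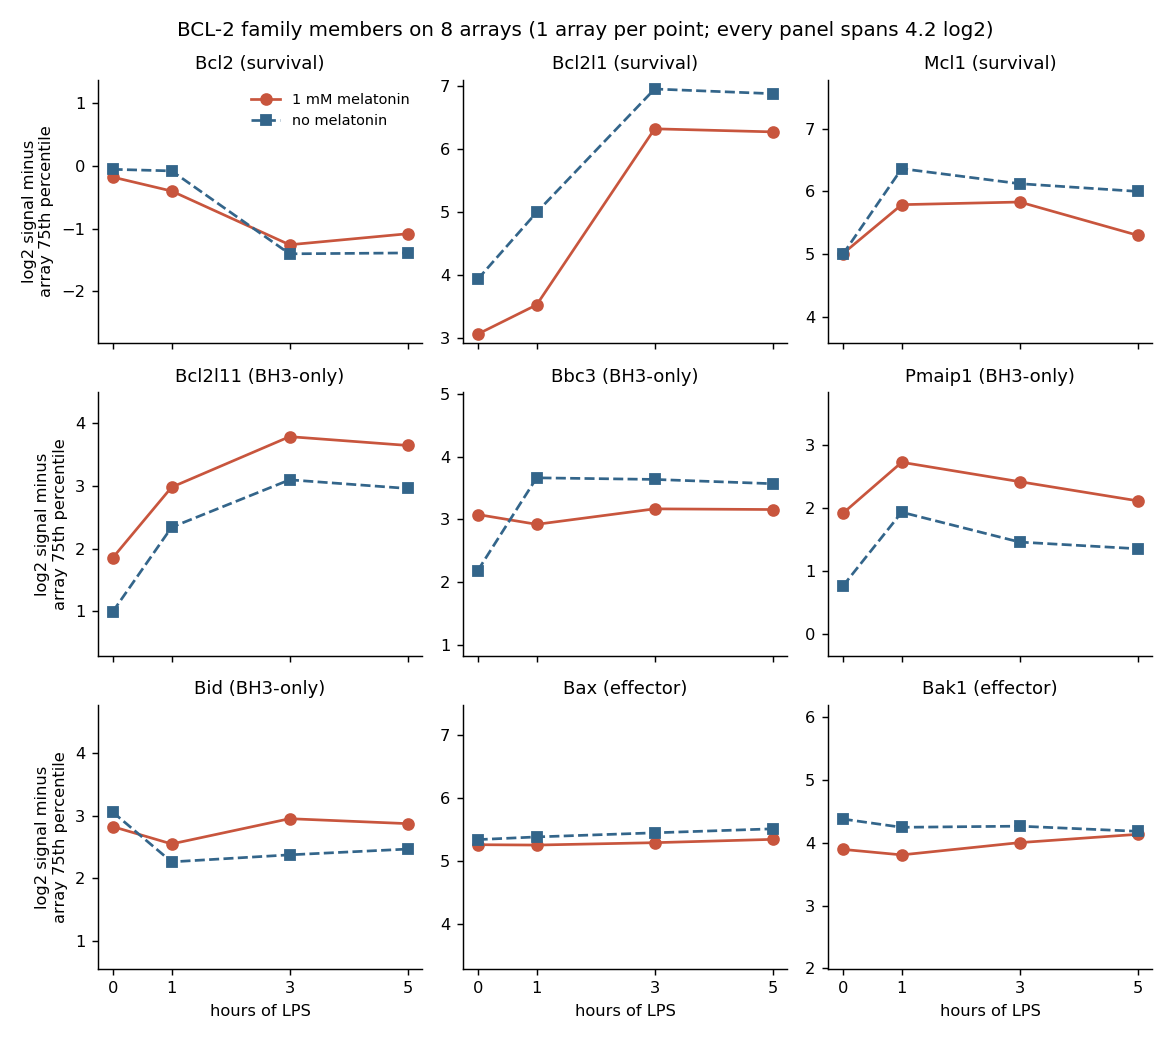
Log2 signal minus the array's 75th percentile (vertical axis) against hours of LPS for the probe tested of each of 9 members, with melatonin (circles, solid) and without (squares, dashed); each point is 1 array and every panel spans the same log2 range. Bcl2l1 and Bcl2l11 climb in both arms, Bcl2 drops by 3 h in both, and Bbc3 is lowest on the array that received neither agent.

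Among the survival genes, Bcl2l1 encodes BCL-XL, which restrains BAX and BAK at the mitochondrion. In the melatonin arm its log2 values were 3.05, 3.52, 6.33 and 6.28 at 0, 1, 3 and 5 h of LPS. Without melatonin they were 3.93, 5.00, 6.96 and 6.88. The 4 arrays at 3 and 5 h were high in both arms and did not overlap the arrays at 0 and 1 h. The log2 change was 3.15 ± 0.21 (SE) at 3 h and 3.09 ± 0.21 at 5 h, or 8.88-fold and 8.51-fold (limma, adjusted p = 0.000675 and 0.000442). At 1 h it was 0.77 ± 0.21 and did not pass (limma, adjusted p = 0.162). All 5 Bcl2l1 probes rose at 3 and 5 h when each probe was tested on its own, by 2.99 to 3.47. Only the probe shown above also passed at 1 h, with 1.65 ± 0.25 (limma, adjusted p = 0.0327).

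Bcl2l1 was lower with melatonin at every LPS time. The difference, melatonin minus none, was -0.87, -1.47, -0.63 and -0.61 on the log2 scale at 0, 1, 3 and 5 h. Over the 4 times it was -0.90 ± 0.15, a 1.86-fold lower level (limma, adjusted p = 0.00813), and all 5 probes fell. The array pair at 1 h was the furthest apart.

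Mcl1 encodes a short-lived survival protein, of which only the transcript was measured here. Its log2 values were 5.01, 5.79, 5.83 and 5.30 at 0, 1, 3 and 5 h with melatonin, and 5.00, 6.36, 6.12 and 6.001 without. Every LPS array stood above both arrays without LPS, and the level was highest at 1 h without melatonin and at 3 h with it. The change was 1.07 ± 0.17 at 1 h, 0.98 ± 0.17 at 3 h and 0.65 ± 0.17 at 5 h (limma, adjusted p = 0.0422, 0.00887 and 0.0237). The melatonin difference was -0.39 ± 0.12 (limma, adjusted p = 0.0439), with single-time differences of 0.011, -0.57, -0.29 and -0.70. The arms were level without LPS and apart once LPS was given, and the other probe differed by -0.16 without LPS and by -0.48 to -0.77 with it. The Mcl1 calls at 1 h and for melatonin were each lost under 11 of 16 alternative settings, and those at 3 and 5 h under 2 and 6.

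Bcl2, the founding survival gene of the family, went the other way. The probe tested, at chr1:108434793-108434852 (mm9), read -0.18, -0.40, -1.26 and -1.08 with melatonin and -0.056, -0.081, -1.40 and -1.39 without. All 4 arrays at 3 and 5 h lay below all 4 earlier ones. The change was -1.21 ± 0.17 at 3 h and -1.12 ± 0.17 at 5 h, 2.32-fold and 2.17-fold lower (limma, adjusted p = 0.00467 and 0.00409). The other probes gave smaller values: the probe shown above fell by 0.63 ± 0.17 at 3 h (limma, adjusted p = 0.0346) and read -0.28 ± 0.17 at 5 h, which did not pass. The third probe passed at no time. At 5 h neither of these probes fell with melatonin (0.024 and 0.092), whereas both were lower without it (-0.58 and -0.86). By the probe tested Bcl2 did not differ detectably with melatonin, at 0.0014 ± 0.12 (95% interval -0.29 to 0.29). The melatonin by LPS term, described below, was 0.54 ± 0.19 and 0.95 ± 0.40 on the other probes and did not pass (limma, adjusted p = 0.933 for each).

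Bcl2a1a, the A1 gene of the list, shares its sequence with copies on chromosome 9. The Bcl2a1c copy lies further off than the others, with its promoter window starting at 114329885 against 88956670 for Bcl2a1a (GRCm38.p6). The 1 probe whose accession list includes Bcl2a1a is named Bcl2a1d and also lists Bcl2a1b, so its signal may come from several copies, which it cannot separate. The promoter windows of the copies were close to identical where they aligned, which was less than the whole 300 bases: Bcl2a1d matched Bcl2a1a at 288 of 294 aligned bases (98.0%), Bcl2a1b at 254 of 256 (99.2%) and Bcl2a1c at 182 of 190 (95.8%). The Bcl2a1a, Bcl2a1b and Bcl2a1d windows hold the AP-1 motif and the Bcl2a1c window does not.

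The probe named Bcl2a1d read 4.31, 5.11, 7.72 and 8.24 at 0, 1, 3 and 5 h with melatonin, and 5.49, 6.81, 8.56 and 8.74 without. The Bcl2a1c probe read 0.46, 1.34, 4.19 and 4.81 with melatonin, and 1.55, 2.99, 5.31 and 5.58 without. Both climbed at each later time in both arms and were lower with melatonin at every time. At 5 h the change was 3.59 ± 0.26 for the Bcl2a1d probe and 4.19 ± 0.20 for Bcl2a1c (limma, adjusted p = 0.000526 and 0.000187). The melatonin difference was -1.06 ± 0.19 and -1.15 ± 0.14 (limma, adjusted p = 0.00958 and 0.00414). At 1 h neither passed in the gene-level test, with 1.06 ± 0.26 and 1.16 ± 0.20 (limma, adjusted p = 0.134 and 0.0551).

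Among the BH3-only genes, Bcl2l11 encodes BIM, which binds every survival protein of the family. Its log2 values were 1.85, 2.98, 3.78 and 3.64 at 0, 1, 3 and 5 h with melatonin, and 0.99, 2.34, 3.095 and 2.96 without. Each LPS array stood above both arrays without LPS, and the melatonin array was the higher of its pair at all 4 times. The LPS change was 1.24 ± 0.086 at 1 h, 2.02 ± 0.086 at 3 h and 1.88 ± 0.086 at 5 h, the last 3.68-fold (limma, adjusted p = 0.00305, 0.000211 and 0.000183). The melatonin difference was 0.72 ± 0.061, or 1.64-fold (limma, adjusted p = 0.00248), and the 4 single-time differences were 0.86, 0.64, 0.69 and 0.69. These Bcl2l11 calls held under each of the 16 alternatives, of which only the mean over probes drew on the other Bcl2l11 probes.

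The 4 Bcl2l11 probes rose by unequal amounts. At 5 h the probe shown above gained 2.85 ± 0.11 and the probe tested 1.88 ± 0.085, whereas 2 probes listed for a different RefSeq transcript gained 1.21 ± 0.19 and 1.33 ± 0.13. All 4 passed at 3 and 5 h. With melatonin 3 of the 4 were higher, and the fourth, at chr2:127957112-127957171 (mm9), read 0.16 ± 0.095 and did not pass (limma, adjusted p = 0.233).

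**Figure D2:**
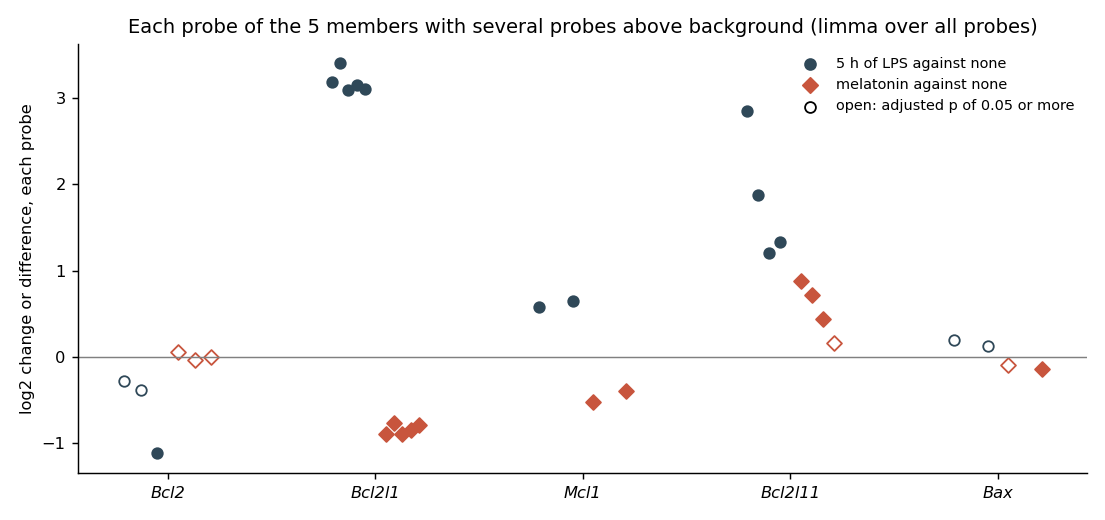
Log2 change at 5 h of LPS (circles) and log2 melatonin difference (diamonds) for each probe of the 5 members with several probes above background; filled symbols passed limma over all probes. The 5 Bcl2l1 probes lie together, the 4 Bcl2l11 probes spread from 1.21 to 2.85 at 5 h, and 1 of 3 Bcl2 probes passed at 5 h; the Bax melatonin difference turns positive under quantile scaling.

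Pmaip1 encodes NOXA, which binds MCL-1 and promotes its breakdown. Its log2 values were 1.92, 2.73, 2.42 and 2.12 at 0, 1, 3 and 5 h with melatonin, and 0.76, 1.94, 1.46 and 1.35 without. In each arm the 1 h array was the highest and the array without LPS the lowest. The change was 1.00 ± 0.12 at 1 h, 0.60 ± 0.12 at 3 h and 0.40 ± 0.12 at 5 h (limma, adjusted p = 0.0211, 0.0141 and 0.0398). The melatonin difference was 0.92 ± 0.085, or 1.89-fold (limma, adjusted p = 0.00266), and was positive at all 4 times, from 0.76 to 1.16. The melatonin call held under each of the 16 alternatives, and the LPS calls were lost under 7 at 1 h, 3 at 3 h and 11 at 5 h.

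Bbc3 encodes PUMA. Its log2 values were 3.08, 2.92, 3.17 and 3.16 at 0, 1, 3 and 5 h with melatonin, and 2.18, 3.66, 3.64 and 3.57 without. The array that received neither agent was the lowest of the 8, the 3 LPS arrays without melatonin were the highest, and the 4 melatonin arrays lay between. The fitted LPS change at 5 h was 0.73 ± 0.38 and passed at none of the times (limma, adjusted p = 0.166 at 5 h). It rests on the arrays without LPS: it was 1.45 at 5 h without the array of melatonin alone (limma, adjusted p = 0.00336) and 0.015 without the array that received neither agent (limma, adjusted p = 0.950). Leaving out either of these arrays also brought the melatonin difference to -0.54 (limma, adjusted p = 0.0153 in each case), against -0.18 ± 0.27 with all 8.

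Bid links death receptors to the mitochondrion once caspase-8 has cut its protein. The probe tested read 2.83, 2.55, 2.95 and 2.87 at 0, 1, 3 and 5 h with melatonin, and 3.06, 2.26, 2.38 and 2.47 without. The array that received neither agent was the highest, and with LPS the melatonin array was the higher of each pair. No LPS time passed, with -0.54 ± 0.19 at 1 h and -0.27 ± 0.19 at 5 h (limma, adjusted p = 0.271 and 0.291). The melatonin difference of 0.26 ± 0.13 did not pass (limma, adjusted p = 0.167). Without the array of melatonin alone the LPS change passed at 3 h and 5 h, at -0.61 and -0.60 (limma, adjusted p = 0.0322 and 0.0249), whereas without the array that received neither agent it was 0.049 and 0.055 (limma, adjusted p = 0.843 and 0.801). Without either 0 h array the melatonin difference passed at 0.42. A second Bid probe was not well above background on any melatonin array and on 2 of the arrays without it, so no fold is given for it; averaged with the first, it turned the melatonin difference to -0.47 (limma, adjusted p = 0.0265).

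Bax and Bak1 encode the effectors that form the pore. Bax read 5.26, 5.25, 5.29 and 5.34 at 0, 1, 3 and 5 h with melatonin, and 5.34, 5.38, 5.45 and 5.51 without. Bak1 read 3.90, 3.81, 4.003 and 4.14 with melatonin, and 4.38, 4.25, 4.27 and 4.18 without. The Bax arrays spanned 0.26 log2 and the Bak1 arrays 0.57, against 3.90 for Bcl2l1. At 5 h of LPS the 95% interval of the fold was 1.00 to 1.19 for Bax and 0.83 to 1.24 for Bak1. Melatonin arrays were the lower of each pair for both genes, with a difference of -0.13 ± 0.037 for Bax and -0.31 ± 0.082 for Bak1 (limma, adjusted p = 0.0332 and 0.0310), but these calls did not hold widely. Under quantile scaling the Bax difference was 0.14 and passed as higher (limma, adjusted p = 0.0225), and the Bak1 difference was -0.11 and did not pass (limma, adjusted p = 0.392). The Bax call as lower held under 2 of 16 alternatives and the Bak1 call under 6. Both Bax probes were lower with melatonin and 1 of them passed.

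**Figure D3:**
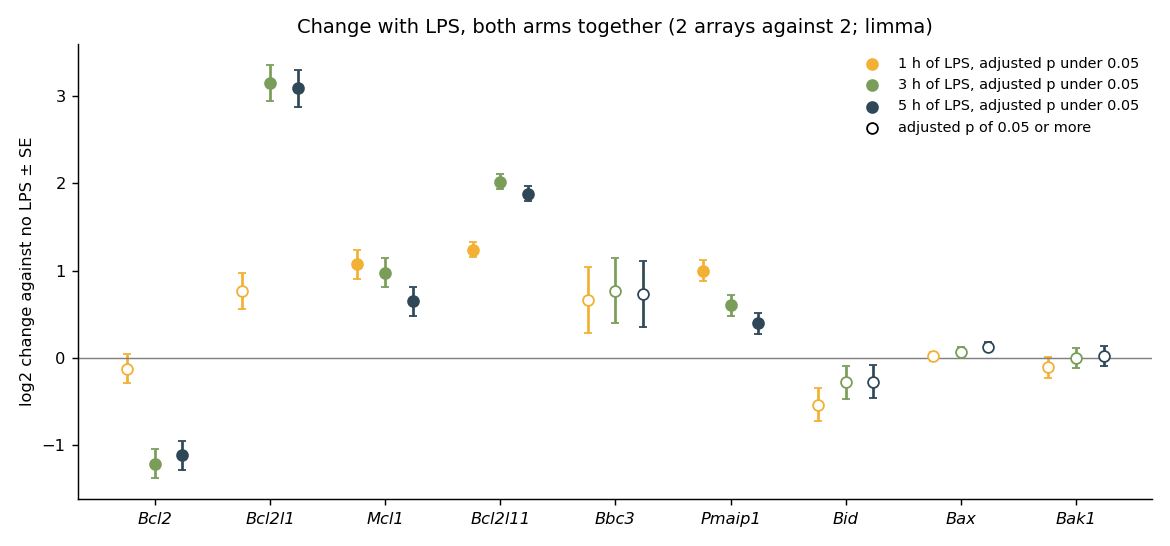
Fitted log2 change (vertical axis, ± SE) at 1, 3 and 5 h of LPS against no LPS for 9 members, 2 arrays against 2, both arms together; filled points passed limma. Bcl2l1 and Bcl2l11 have the largest rises at 3 and 5 h, Bcl2 fell at 3 and 5 h, and Bbc3, Bid, Bax and Bak1 passed at no time; under quantile scaling the Bax change turns negative and passes at 3 and 5 h, and that of Bak1 turns negative at 5 h.

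With melatonin, 2 BH3-only genes were higher, and 2 survival genes and both effectors were lower, though the balance turned under quantile scaling. Of the 9 members 2 rose (Bcl2l11 and Pmaip1) and 4 fell (Bcl2l1, Mcl1, Bak1 and Bax), against 40.6% of all entries called, 15.3% higher and 25.3% lower. The members' median difference was -0.13, beside -0.097 over all entries. The sign was the same at all 4 times for 5 of 9 members, a share of 55.6%, beside 59.2% of all entries. Without either 1 h array, or either 3 h array, the count of members called was 3 in place of 6. Under quantile scaling, and again in the deposited table, 3 members rose (Bcl2l11, Pmaip1 and Bax) and 1 fell (Bcl2l1).

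**Figure D4:**
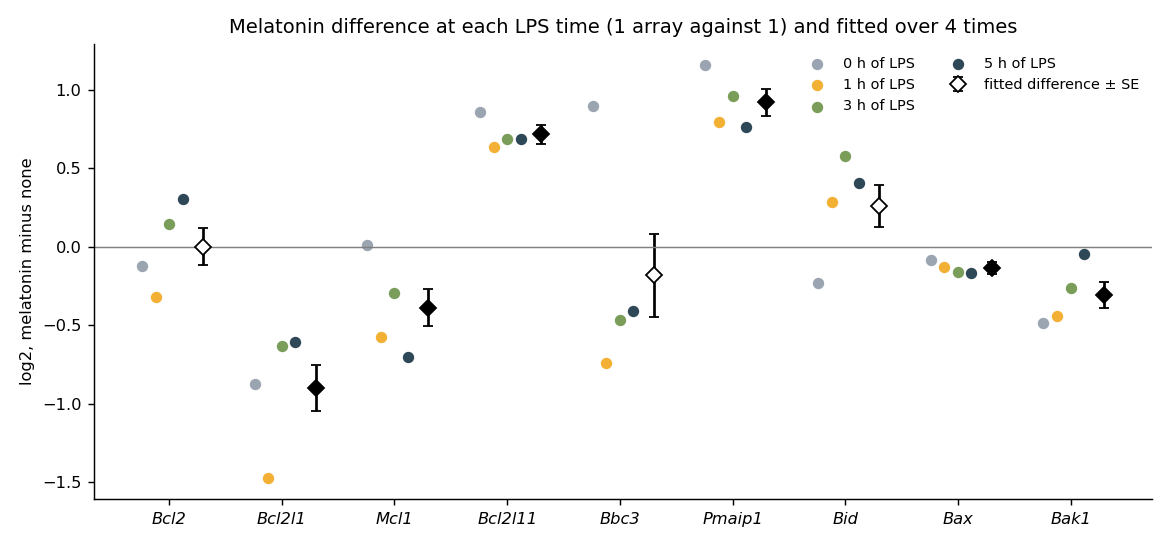
Log2 difference, melatonin minus none, at 0, 1, 3 and 5 h of LPS (coloured points, 1 array against 1) and fitted over the 4 times (diamonds, ± SE, filled where limma passed) for 9 members. Bcl2l11 and Pmaip1 lie above 0 at each time, Bcl2l1, Bax and Bak1 below, and Bbc3 is above 0 without LPS alone; the Bax difference turns positive under quantile scaling.

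Whether the melatonin difference itself changed with LPS was tested by a further term in the model, which subtracts the melatonin difference without LPS from its average under LPS. It passed for 0 of 9 members, against 0 of all 20079 entries (limma); at an unadjusted p under 0.05 it picked 3 members and 754 entries. The 3 were Bbc3 at -1.44 ± 0.18, Bid at 0.65 ± 0.17 and Mcl1 at -0.53 ± 0.17 (limma, adjusted p = 0.460, 0.908 and 0.908). For Bbc3 the melatonin array was higher by 0.90 without LPS and lower by 0.74, 0.47 and 0.41 at 1, 3 and 5 h.

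Around these members, the other genes of the pathway were counted in 4 lists. Of 17 other family members 11 were tested. At 5 h of LPS 4 rose and 4 fell, against 44.2% of all entries called, 24.9% higher and 19.4% lower. Their median was 0.080, beside 0.082 over all entries. The largest changes were the A1 copies above and Bmf, a BH3-only gene. Bmf read 1.82, 0.84, -1.39 and -1.66 at 0, 1, 3 and 5 h with melatonin, and 1.21, -0.27, -2.34 and -3.74 without. It was lower at each later time in both arms. At 5 h Bmf fell by 4.21 ± 0.33 (limma, adjusted p = 0.000609), and it was higher with melatonin by 1.19 ± 0.23 (limma, adjusted p = 0.0130). By the mean of its probes Bmf fell by 2.48 at 5 h and was higher with melatonin by 0.54 (limma, adjusted p = 0.000524 and 0.0230). Bcl2l11 and Bmf, both BH3-only, thus moved in opposite directions with LPS and the same way with melatonin.

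Genes of the apoptosome and executioner list were mostly lower at 5 h of LPS by the probe tested. Of 10 apoptosome and executioner genes 1 rose (Cycs, cytochrome c) and 7 fell at 5 h, against 44.2% of all entries called and 19.4% called lower, with a median of -0.46. At 3 h 1 rose and 4 fell, against 33.7% of all entries called and 15.1% called lower. At 1 h none passed, against 1.96% of all entries. Casp2 fell by 1.13 ± 0.13 at 5 h (limma, adjusted p = 0.00196). Casp9, the caspase of the apoptosome, fell by 1.14 ± 0.20 by its brightest probe (limma, adjusted p = 0.00678), but was at 0.070 by the mean of its probes, which did not pass. Endog, a mitochondrial endonuclease, read 1.20, 1.14, 0.80 and 0.52 at 0, 1, 3 and 5 h with melatonin and 1.31, 1.21, 0.74 and 0.011 without, and fell by 0.99 ± 0.17 at 5 h (limma, adjusted p = 0.00575). With melatonin 4 of the 10 rose and 2 fell, against 40.6% of all entries called.

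Death receptor genes and their checkpoints were measured for 12 of 13. At 5 h 5 rose and 2 fell, against 44.2% of all entries called, with a median of 0.27 beside 0.082. Cflar, the decoy that blocks caspase-8, rose by 2.60 ± 0.17, Birc3, a ubiquitin ligase that restrains it, by 2.14 ± 0.17, and Tnfrsf10b, a receptor for TRAIL, by 1.05 ± 0.22 (limma, adjusted p = 0.000386, 0.000597 and 0.0121). Cflar and Birc3 were lower with melatonin, at -0.47 ± 0.12 and -0.58 ± 0.12, and Tnfrsf10b was higher by 0.74 ± 0.15 (limma, adjusted p = 0.0258, 0.0139 and 0.0153). These melatonin calls were lost under 10, 4 and 2 of the 16 alternatives.

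All 16 regulators of the family were measured. At 5 h of LPS 8 rose and 3 fell, against 44.2% of all entries called, with a median of 0.39 beside 0.082. The largest rises were Trib3, a pseudokinase of the stress response, at 3.71 ± 0.10, and the NF-kB subunits Nfkb1 at 2.85 ± 0.13 and Rel at 2.73 ± 0.21 (limma, adjusted p = 6.42e-05, 0.000178 and 0.000580). With melatonin 5 rose and 3 fell, against 40.6%. Trib3 was higher with melatonin by 0.74 ± 0.073 and Nfkb1 lower, at -0.65 ± 0.091 (limma, adjusted p = 0.00295 and 0.00554), and Rel was at -0.42 ± 0.15, which did not pass. Foxo1 and Foxo3, picked here after their values were seen because the Bcl2l11 window holds the FOXO motif, fell at 5 h of LPS by 1.68 ± 0.26 and 0.71 ± 0.19 (limma, adjusted p = 0.00460 and 0.0281; the Foxo3 call was lost under 5 of 16 alternatives). Both were higher with melatonin, by 1.23 ± 0.18 and 0.86 ± 0.14 (limma, adjusted p = 0.00646 and 0.00728). Trp53, the gene of p53, was lower with melatonin, at -0.34 ± 0.088 (limma, adjusted p = 0.0291), and only its transcript was measured. E2f1 had the largest fall of the list at 5 h of LPS, at -1.86 ± 0.25 (limma, adjusted p = 0.00291). Whether these regulators act on the members was not tested. In none of the 4 lists did a gene pass the melatonin by LPS term.

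**Figure D5:**
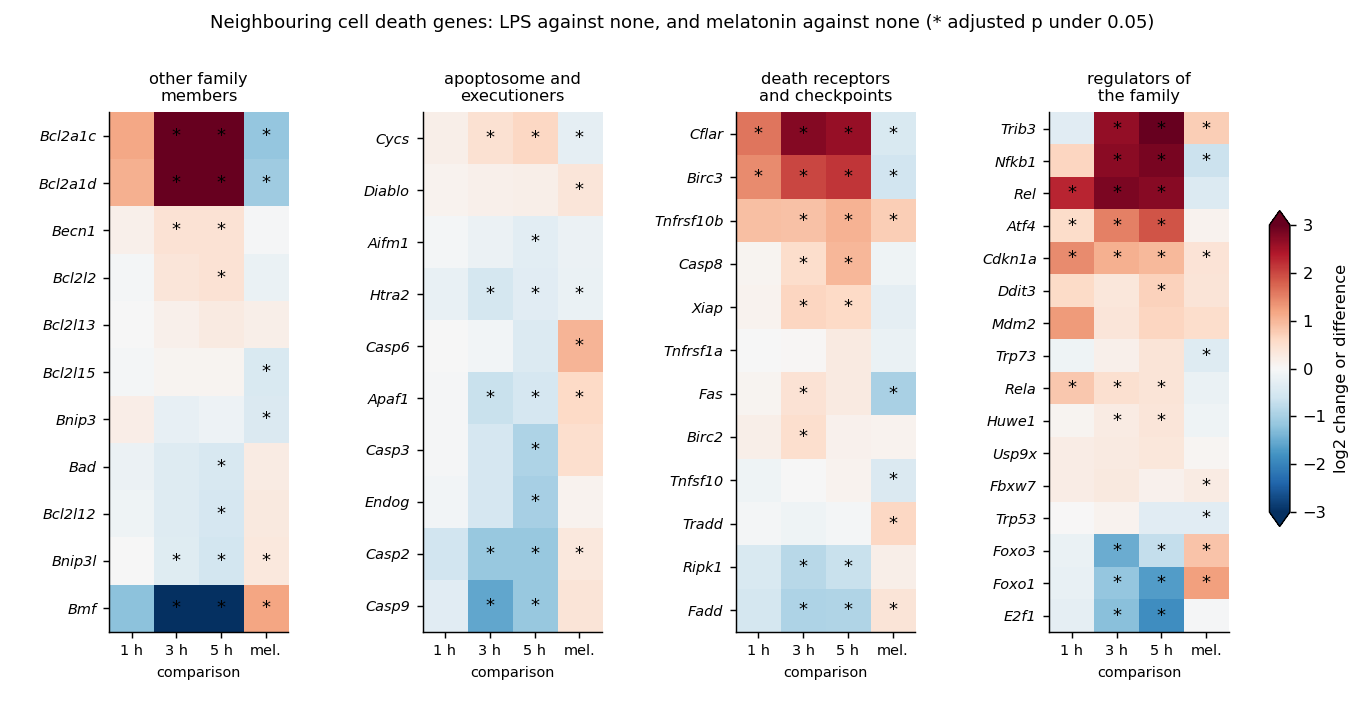
Log2 change at 1, 3 and 5 h of LPS and log2 melatonin difference (mel.) for the tested genes of 4 neighbouring lists, each ordered by its change at 5 h; a star marks limma adjusted p under 0.05 and the colour scale ends at 3 log2. The A1 copies, Cflar, Birc3 and the NF-kB subunits rise, and Bmf and Casp2 fall.

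Genes whose profile over the 8 arrays was most like that of a member were taken from 4964 entries with a range of at least 1 log2, as a description in which all points share the same arrays. Bcl2l1 was matched most closely by Gm4907 and Bmp2k (Pearson's r = 0.997 for each), Bcl2 by Fam174a and Gmnn (r = 0.988 for each) and Bcl2l11 by Gstp3 and Sat1 (r = 0.981 and 0.980). Mcl1 was matched by Eftud1 and Bcl10 (r = 0.977 and 0.968), Bbc3 by Zc3h10 and Gm14488 (r = 0.960 and 0.933) and Pmaip1 by Scai and Pard6g (r = 0.951 and 0.928). Among these 6 members, Bcl2l1 and Bcl2 ran opposite to each other (r = -0.89), and Mcl1 and Bbc3 were the closest pair (r = 0.79).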

How the data were processed

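RNA of RAW264.7 cells was measured on 8 1-colour arrays. Per the file headers, Agilent Feature Extraction 12.0.3.1 made the background-subtracted intensity of each spot, and other columns held flags of 0 or 1 for spots well above background, saturated or outlying. Mean and local background intensity columns, as deposited, served 1 alternative. A deposited log2 table correlated at r = 0.999 or above with the log2 processed signals; the sources used here do not name its maker.

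Groups followed the sample titles. The treatment field ran 1 step ahead of them in the melatonin arm, and the melatonin arrays at 0, 1 and 3 h correlated more with the arrays of their titled time (r = 0.888, 0.725 and 0.719) than of the next (0.432, -0.585 and 0.634; 1887 genes). Of 62976 spots, 3671 controls and any outliers were dropped, spots of a probe were averaged (56605 probes), log2 values were scaled to each array's 75th percentile, and 30429 probes passed a filter for detection (well above background on 2 or more arrays). The brightest probe stood for its gene, after 1535 symbols were updated through RefSeq; probes without a symbol stayed as entries.

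limma 3.58.1 in R 4.3.3 was fitted over all entries with an intensity trend, 3 residual degrees of freedom in the additive model and 2 with the melatonin by LPS term. Calls were 2-sided, with p adjusted by Benjamini-Hochberg within a comparison and a threshold of 0.05; probe-level values come from the same fit over all probes. The fit was tested on simulated data. The number of arrays limits the precision. The members and lists were chosen with earlier results of these data known. One gene of the neighbouring lists is not reported here and was left out of their counts. The named genes were all members, the A1 copies, the 3 called genes of each list with the largest change at 5 h of LPS, and the 2 genes closest in profile to each member that ranged over at least 1 log2. Foxo1, Foxo3, Trp53, E2f1 and Cycs were named after their values were seen. Alternatives were quantile scaling, normexp background, the deposited table, other filters, no intensity trend, the mean over probes, each probe tested, and each array left out. A different NF-kB pattern, tried first and not nested in the consensus used, matched 1 window each of Bcl2l1, Bbc3 and Mcl1. Promoters were aligned with Biopython 1.88.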

Additional observations from a re-analysis of the deposited data

How the results depend on the processing

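No paired analysis was possible because every condition was hybridised once, apart from the comparison of the arms within each LPS time that the additive model makes. The calls of Bcl2l11 (3 LPS times and melatonin), Bcl2l1 (3 and 5 h, melatonin), Bcl2 (3 and 5 h) and Pmaip1 (melatonin) held under all 16 alternatives. The other calls of members were lost under at least 2. With each probe tested, the brightest probe was still the one read for a gene, so that alternative could not show probes that disagree. By single probes, 2 of 3 Bcl2 probes passed at 3 h and 1 of 3 at 5 h. For Bcl2l11, 3 of 4 probes passed at 1 h and 3 of 4 for melatonin. With no filter, and again with no intensity trend, 1 member was called at 1 h, 3 at 5 h and 3 for melatonin. Leaving out 1 array gave 1 to 4 members at 1 h, 3 to 7 at 3 h, 3 to 7 at 5 h and 3 to 6 for melatonin; the cause was not tested. The melatonin by LPS term could not be estimated without either 0 h array.

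Some signs turned. Under quantile scaling and in the deposited table Bax was -0.052 and -0.044 at 1 h, -0.17 and -0.15 at 3 h, -0.18 and -0.16 at 5 h, and 0.14 and 0.12 for melatonin. The Bax values at 3 and 5 h and for melatonin passed in both, with adjusted p of 0.0303, 0.0216 and 0.0225 under quantile scaling and 0.0474, 0.0348 and 0.0359 in the deposited table (limma). Bak1 at 5 h was -0.22 in both, Bcl2 for melatonin was -0.0077 and -0.0076, and Bcl2l1 for the melatonin by LPS term was 0.075 and 0.072. In the deposited table Bax was 0.017 for that term. Normexp gave Bak1 0.0051 at 3 h and Bcl2 -0.063 for melatonin. The mean over probes gave Bid -0.47 for melatonin, with its dim second probe included, Casp9 0.070 at 5 h, and Bcl2l1 0.067 and Bcl2l11 0.0095 for the melatonin by LPS term. With 1 array left out, the value ran from -0.34 to 0.091 for Bcl2 at 1 h, -0.017 to 0.054 for Bax at 1 h, -0.23 to 0.0068 for Bak1 at 1 h, -0.12 to 0.11 at 3 h and -0.15 to 0.20 at 5 h, -0.056 to 1.38 for Bbc3 at 1 h, and -0.61 to 0.049 for Bid at 3 h and -0.60 to 0.055 at 5 h. For melatonin it ran from -0.100 to 0.11 for Bcl2, -0.54 to 0.0050 for Bbc3 and -0.040 to 0.17 for Endog, and for the melatonin by LPS term from -0.18 to 0.25 for Bcl2l1.

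Over all entries 393, 6765, 8881 and 8160 were called at 1, 3 and 5 h and for melatonin. At 1 h the count was 137 with no filter, 159 with no intensity trend, 738 with each probe tested, and 95 to 320 with 1 array left out. With 1 array left out it was 2489 to 6811 at 3 h, 4475 to 8384 at 5 h and 4134 to 6765 for melatonin, and the melatonin by LPS term called 40 and 17 entries without the 1 h array of the melatonin arm and of the other arm. Quantile scaling split the calls into 2743 higher and 3655 lower at 3 h, 3593 and 4636 at 5 h, and 3780 and 3450 for melatonin, against 3734 and 3031, 4995 and 3886, and 3079 and 5081. Among neighbours, Tnfrsf10b at 5 h was lost when the 5 h LPS-only array was left out.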
